A study of Mus musculus with 39 samples.

Results

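This account concerns mouse lung fibroblasts kept with 100 µg/ml of C1q for 48 h, set against the same cells after 24 h with that dose. The 6 libraries, 3 per time, were taken by their dose and time labels from the 39 libraries of the series. The cells came from the lungs of wild-type C57BL/6 mice, were freed of cells bearing CD45, CD31, EpCAM, CD146 or Ter119 on magnetic beads, and adhered and grew in medium with fetal bovine serum. Serum was withdrawn for 24 h before C1q was added, and both times share that step. The other libraries of the series hold untreated cells at 0 h and the doses 1, 10 and 100 µg/ml at 2, 24, 48 and 72 h, with 3 libraries per group. Those at 1 and 10 µg/ml after 24 and 48 h (12 libraries) serve here to ask whether the second day went differently at the high dose.

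C1q recognises the targets of the classical complement pathway, in which C1r and C1s are its proteases and C3 and C4 the proteins they act towards. Most C1q in tissue is made by macrophages, whereas fibroblasts make many of the later components and regulators. Lung fibroblasts also lay down the matrix of the lung, divide in serum and leave the cell cycle when growth factors are withdrawn.

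The question was what changed between the first and the second day with C1q. No library of these times without C1q was analysed here, so C1q and time in culture cannot be told apart in the change from 24 to 48 h. Nothing in the labels says whether the 3 replicates are separate cultures or mice. The p-values rest on the spread among replicate libraries, estimated over all 39 of the series, and this may be technical. RNA was measured in bulk, and fewer cells of a type cannot be told apart from less RNA per cell. The 3 columns at 24 h are also spelled in another way in the header of the count table than the 3 at 48 h, a mark of unknown origin that runs with time at this dose.

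Total counts were 2373782 to 2637521 per library at 24 h and 1845809 to 2154277 at 48 h. Ribosomal protein genes took 6.77 to 7.06% of the counts at 24 h and 5.91 to 6.09% at 48 h. On the first principal component of all 39 libraries (40.3% of the variance), the 24 h libraries lay at 9.59 to 11.4 and the 48 h libraries at 25.9 to 27.3. Replicates lay closer to each other than the times did on this axis. The defining genes of fibroblasts were abundant in all 6 libraries, with Col1a1, a chain of type I collagen, at 1170 to 1360 CPM, a library's counts scaled to a common size, at 24 h and 1130 to 1330 at 48 h. Pdgfra, a receptor of fibroblasts for platelet-derived growth factor, lay at 458 to 551 and 480 to 541 CPM. Genes of lymphocytes and red cells were at or near 0, with Cd3e and Hba-a1 without a count in any of the 6.

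Of 14419 genes tested, 452 were higher at 48 h and 423 lower (edgeR's quasi-likelihood test, Benjamini-Hochberg adjusted p under 0.05), or 3.13% and 2.93% of all. The median difference over all tested genes was -0.0058 on the log2 scale, and the median size of a called difference was 0.63. The spelling of the header could be added to the fit as a term only through the 1 µg/ml groups, in which both spellings occur. With it, 153 genes were higher and 191 lower, and 304 of these 344 were among the 875 called without it, in the same direction. Of the 875, 391 stayed called on leaving out each of the 6 libraries in turn. Genes of mitosis and cholesterol synthesis made up the falls described first, and genes of the acute phase, complement and the immediate early response the rises. The plot of named genes gives 14 of the 15 largest changes in each direction, among called genes that passed further filters on level and stability, beside the lower doses.

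**Figure D1:**
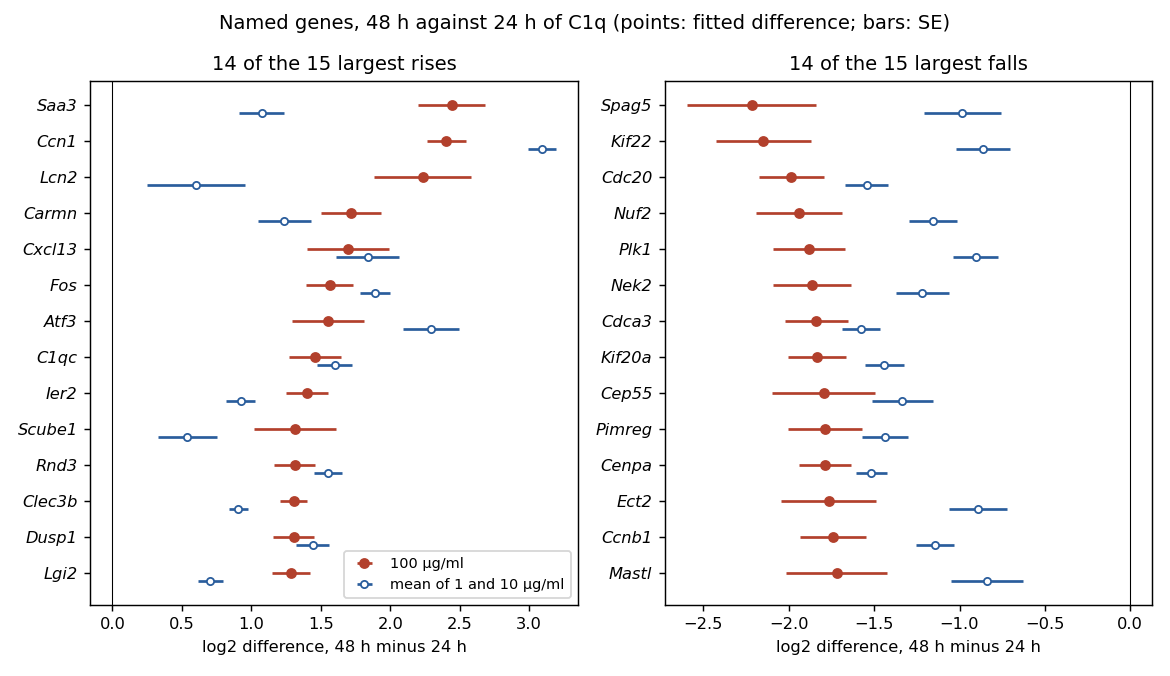
Log2 difference between 48 h and 24 h (x axis) for 14 genes each of the 15 that rose and the 15 that fell most at 100 µg/ml (filled points) and for the mean of 1 and 10 µg/ml (open points), with bars of 1 SE. Saa3 leads the rises at 2.44 and Spag5 the falls drawn at -2.22, and all 14 falls drawn at the high dose are falls at the lower doses too.

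Genes of mitosis fell on the second day. All 22 genes on the list of mitotic genes were called lower, with a median difference of -1.30, against 2.93% of all tested genes. Their summed level went from 777 to 863 CPM in the 24 h libraries to 312 to 333 CPM in the 48 h libraries. With the header spelling as a term, 19 of the 22 were called lower. Of the 15 largest falls among called genes with a mean log2 CPM of at least 3, no overlap between the times and a call that held without each library, 14 belong to chromosome segregation and cell division, and they are described next by role.

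Regulators of entry into and exit from mitosis were among them. Cdc20 (GRCm38.p6 chromosome 4, 118432901 to 118437343) encodes the activator of the anaphase-promoting complex. It stood at 43.6, 41.7 and 49.1 CPM at 24 h and at 11.6, 8.16 and 14.4 CPM at 48 h. The groups lay far apart, with every 48 h library under 15 CPM. Cdc20 fell by 1.98 ± 0.19 (log2 difference ± SE; adjusted p = 3.53e-10). Ccnb1 (chromosome 13, 100778739 to 100786486), the cyclin B1 gene whose product drives entry into mitosis, was at 22.6, 20.8 and 25.8 CPM and then at 6.83, 7.71 and 5.98 CPM. No 48 h library reached 8 CPM, and the difference was -1.74 ± 0.19 (adjusted p = 5.88e-09). Mastl, a kinase that restrains the phosphatase opposing cyclin B and Cdk1, fell by 1.72 ± 0.30 and Plk1, the polo-like kinase of mitosis, fell by 1.88 ± 0.21.

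Motors and kinetochore genes fell as much. Kif22, a kinesin that moves chromosome arms, was at 19.4, 15 and 24.7 CPM at 24 h and at 5.26, 4.08 and 3.99 CPM at 48 h, a difference of -2.15 ± 0.28 (adjusted p = 2.32e-07). Kif20a, a kinesin of the cleavage furrow, was at 53.4, 51.5 and 56.8 CPM and then at 18.4, 11.3 and 15.9 CPM. These 2 kinesins showed no overlap between the times. Cenpa, the histone H3 variant of centromeres, went from 57.4, 47.9 and 53 CPM to 17.3, 13.2 and 15.4 CPM and gave the smallest adjusted p of the falls named, 1.45e-11, at -1.79 ± 0.15. Nuf2, a subunit of the NDC80 complex that binds microtubules at kinetochores, fell by 1.94 ± 0.25 and Spag5, a spindle-associated protein, fell by 2.22 ± 0.38. Nek2, a centrosomal kinase, stood at -1.86 ± 0.23, Ect2, which switches on RhoA in cytokinesis, at -1.77 ± 0.28 and Cep55, a protein of the midbody, at -1.80 ± 0.30. Cdca3 and Pimreg, both of mitotic cells, stood at -1.84 ± 0.18 and -1.79 ± 0.22.

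Genes of DNA replication moved less. Of 20 on that list, 6 were lower and 0 higher, with a median of -0.41 (2 lower with the spelling term). Over all tested genes 2.93% were lower. Mcm5, a subunit of the replicative helicase, fell by 0.95 ± 0.21 and Rrm2, a subunit of ribonucleotide reductase, fell by 0.94 ± 0.19. Rrm2 lay at 23.4, 22.7 and 23.7 CPM at 24 h and at 10.5, 13.2 and 12.5 CPM at 48 h. Mcm2 and Mcm3, of the same helicase, differed by -0.17 ± 0.35 and -0.11 ± 0.23 and were not called. The proliferation marker Mki67 was at 194 to 226 CPM in untreated cells, 65.4 to 72.8 at 24 h, 25.8 to 30.8 at 48 h and 21.8 to 33.1 CPM at 72 h of 100 µg/ml. Its 48 and 72 h libraries overlapped.

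Promoters of mitotic genes are known for a CCAAT box, bound by NF-Y, and for the cell cycle genes homology region (CHR), bound by the DREAM complex. The letters CCAAT and TTTGAA were searched on both strands of the 250 bases before each RefSeq start (GRCm38.p6), where promoters of 11009 of the 14419 tested genes were found. CCAAT was in 17 of 19 promoters of 18 mitotic list genes (89.5%), in 49.5% of promoters of genes called lower, in 31% of those called higher and in 35.2% of 14198 promoters of all tested genes. The replication list held it in 13 of 19 (68.4%). TTTGAA was in 8 of the 19 mitotic promoters (42.1%), in 16.3% of promoters of genes called lower, in 9.96% of those called higher and in 11.6% of all. The 3 promoters below show how close these letters lie to the start in 3 of the genes that fell. Matches to CCAAT and TTTGAA are in capitals. A match on the other strand appears as its reverse complement, and each run ends at the base before the start. For Cdc20 (chr4:118437344-118437593, minus strand), TTTGAA begins 18 bases and CCAAT 53 and 8 bases before the start. For Kif22 (chr7:127042421-127042670, minus strand), TTTGAA begins at 215 and 17 bases and CCAAT at 233 and 54 bases. Ccnb1 (chr13:100786487-100786736, minus strand) holds CCAAT at 99 and 67 bases and no TTTGAA in this window.
Cdc20: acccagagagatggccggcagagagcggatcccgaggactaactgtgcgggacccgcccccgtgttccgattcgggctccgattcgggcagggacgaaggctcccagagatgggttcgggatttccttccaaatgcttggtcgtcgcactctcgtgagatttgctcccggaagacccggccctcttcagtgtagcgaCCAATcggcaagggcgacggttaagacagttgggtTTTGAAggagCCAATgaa
Kif22: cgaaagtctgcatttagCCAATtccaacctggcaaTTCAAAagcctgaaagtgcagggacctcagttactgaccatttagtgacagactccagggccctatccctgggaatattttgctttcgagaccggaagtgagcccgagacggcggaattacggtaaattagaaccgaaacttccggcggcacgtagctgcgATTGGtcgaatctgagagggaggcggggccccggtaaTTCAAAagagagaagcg
Ccnb1: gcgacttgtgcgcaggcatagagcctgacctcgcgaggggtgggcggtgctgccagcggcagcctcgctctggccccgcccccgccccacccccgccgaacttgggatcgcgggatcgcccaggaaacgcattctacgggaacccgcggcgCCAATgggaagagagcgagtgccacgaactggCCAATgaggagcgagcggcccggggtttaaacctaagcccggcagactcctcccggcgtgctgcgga
A match of letters is a description of the sequence and shows no binding.

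Cholesterol synthesis was the second group that went down. Its genes are switched on by SREBP2 when cells are short of sterol. Of 24 on the list, 10 were lower and 0 higher, with a median of -0.31 (6 lower with the spelling term). The share of all tested genes called lower was 2.93%. Nsdhl, a sterol dehydrogenase, went from 50.7, 47.5 and 44.2 CPM to 27.9, 31.7 and 33.4 CPM (-0.61 ± 0.14). Idi1, the isopentenyl diphosphate isomerase, went from 75.6, 73.1 and 72.5 CPM to 49.4, 54.4 and 45.8 CPM (-0.56 ± 0.12). Neither overlapped between the times. Nsdhl had stood at 159 to 177 CPM in untreated cells, and after 72 h of this dose it was at 32.4 to 37.3 CPM, overlapping its 48 h libraries. Pmvk, the phosphomevalonate kinase, gave -0.59 ± 0.14, Fdps, the farnesyl diphosphate synthase, -0.42 ± 0.10, and Mvd, the mevalonate diphosphate decarboxylase, -0.74 ± 0.18, and all 3 were called lower. The stearoyl-CoA desaturase genes Scd1 and Scd2, which make monounsaturated fatty acids, were lower at -0.77 ± 0.10 and -0.57 ± 0.08. Apoe, the lipid carrier that LXR receptors induce, rose by 0.87 ± 0.08, from 839, 899 and 805 CPM to 1370, 1680 and 1590 CPM. LXR targets did not rise as a list. Of 11 genes of cholesterol export and LXR targets, 1 was higher and 2 lower, with a median of -0.28. CCAAT was also in 84.2% of 19 promoters of 16 cholesterol genes. TCACNCCAC, the letters used for a sterol regulatory element, was in 1 of the 19 (5.26%) and in 0.986% of all promoters.

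Acute phase genes led the rises. These are genes that hepatocytes and stromal cells induce in inflammation. Of 8 tested on the list, 6 were higher and 0 lower, with a median of 0.82, against 3.13% of all tested genes (4 higher with the spelling term). Saa3 (chromosome 7, 46711998 to 46719615), the serum amyloid A of tissue cells, was at 78.8, 87.4 and 64.1 CPM at 24 h and at 387, 431 and 432 CPM at 48 h. The lowest 48 h library stood more than 4-fold above the highest of 24 h. Saa3 rose by 2.44 ± 0.24 (adjusted p = 5.23e-10).

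Lcn2 (chromosome 2, 32384637 to 32387739), the lipocalin that withholds iron siderophores from bacteria, went from 4.36, 4.39 and 6.62 CPM to 15.8, 27.2 and 29.9 CPM. The 3 libraries at 48 h spread widely but lay above those at 24 h, and Lcn2 rose by 2.23 ± 0.35 (adjusted p = 8.77e-06). With the header spelling as a term its adjusted p was 0.0968. Haptoglobin (Hp), which binds free haemoglobin, was at 48.7, 60.3 and 44.9 CPM and then at 101, 126 and 116 CPM (1.15 ± 0.12). Its groups did not overlap. Cp, the copper oxidase ceruloplasmin, rose by 0.72 ± 0.11, Steap4, a metalloreductase, by 0.78 ± 0.13 and Lbp, which binds lipopolysaccharide, by 0.50 ± 0.15. Ptx3, a pentraxin, differed by 0.86 and was not called.

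Acute phase promoters are known for C/EBP sites, for which the letters TTGCNNAA were searched. They were in 5 of 9 promoters of 6 acute phase genes (55.6%), in 11.3% of promoters of genes called higher, in 7.18% of those called lower and in 7.59% of all. The complement list, described next, held them in 2 of 13 promoters (15.4%). The promoters of Saa3 (chr7:46715677-46715926, minus strand), Lcn2 (chr2:32387740-32387989, minus strand) and C3 (chr17:57228137-57228386, minus strand) are shown as genes of the 2 groups that rose and hold a match. In them the match begins 99, 216 and 45 bases before the start. Saa3 also holds TCACNCCAC, in capitals as its reverse complement.
Saa3: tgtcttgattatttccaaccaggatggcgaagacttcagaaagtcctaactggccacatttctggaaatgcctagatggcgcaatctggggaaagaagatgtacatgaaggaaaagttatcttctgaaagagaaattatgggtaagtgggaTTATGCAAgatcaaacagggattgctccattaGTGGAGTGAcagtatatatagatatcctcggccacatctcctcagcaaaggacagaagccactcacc
Lcn2: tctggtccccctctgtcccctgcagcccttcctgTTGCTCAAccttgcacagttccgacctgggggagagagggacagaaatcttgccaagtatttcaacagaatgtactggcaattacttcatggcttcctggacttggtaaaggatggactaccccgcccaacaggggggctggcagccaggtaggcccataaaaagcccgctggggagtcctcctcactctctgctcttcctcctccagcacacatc
C3: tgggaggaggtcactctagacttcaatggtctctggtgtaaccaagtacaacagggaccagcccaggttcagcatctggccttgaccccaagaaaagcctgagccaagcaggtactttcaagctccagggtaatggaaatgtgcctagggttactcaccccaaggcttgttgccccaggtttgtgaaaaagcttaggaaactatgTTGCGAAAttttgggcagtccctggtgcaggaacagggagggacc

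Most complement genes rose. Of 21 tested, 14 were higher and 1 lower, with a median of 0.78 (9 and 0 with the spelling term). Over all tested genes, 3.13% were higher and 2.93% lower. C3 (chromosome 17, 57203967 to 57228136), on which all complement pathways converge, was at 137, 148 and 152 CPM at 24 h and at 356, 324 and 298 CPM at 48 h. The times were well parted, and C3 rose by 1.16 ± 0.12 (adjusted p = 2.29e-09). The proteases that bind C1q followed, with C1ra at 96.2, 98 and 101 CPM and then at 150, 177 and 178 CPM (0.78 ± 0.11). C1s1 rose by 0.54 ± 0.09 and C4b, whose product C1s cleaves, by 0.64 ± 0.14. Among regulators, Serping1, the inhibitor of C1r and C1s, went from 1400, 1570 and 1550 CPM to 2300, 2040 and 2250 CPM (0.55 ± 0.08). Clu, the lytic-phase inhibitor clusterin, was the 1 member called lower, at -0.40 ± 0.09.

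The 3 chain genes of C1q itself were higher at 48 h. C1qc was at 13.1, 15.7 and 8.01 CPM and then at 35.7, 29.5 and 35.9 CPM (1.46 ± 0.19, adjusted p = 2.56e-07). C1qb rose by 1.10 ± 0.16 and C1qa by 0.93 ± 0.19. These 3 are also genes of macrophages, and the list of macrophage and myeloid genes moved with them. Of 22 tested myeloid genes, 10 were higher (6 with the spelling term) and 0 lower, against 3.13% higher of all tested genes. The list's median was 0.74. The summed level of its 24 genes was 492 to 515 CPM at 24 h and 755 to 796 CPM at 48 h, and none of them was at 0 in all 6 libraries. Lyz2, the lysozyme gene of myeloid cells, held most of this sum, at 276, 292 and 285 CPM and then at 429, 433 and 396 CPM (0.56 ± 0.09). Fcer1g, an adaptor of Fc receptors, rose by 1.23 ± 0.19, from 9.5, 8.04 and 10.1 CPM to 20, 23.6 and 21.4 CPM. Ptprc, the gene of CD45, was at 2.77 to 3.66 and 4.2 to 5.9 CPM and was not called, nor was Csf1r, at 6.95 to 7.92 and 4.98 to 11.6 CPM. The part of myeloid cells in the complement result was not tested.

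Cxcl13, a chemokine for B cells, rose by 1.70 ± 0.30, from 5.54, 5.12 and 6.27 CPM to 15.2, 22.7 and 16.9 CPM. No libraries overlapped, and with the spelling term its adjusted p was 0.0599. Of 13 chemokines 3 (23.1%) were higher and 0 lower, and of 21 genes of cytokines and NF-kB feedback 3 (14.3%) were higher and 0 lower, against 3.13% of all tested genes (0 of either list with the spelling term). Il6 was at 1.98, 6.58 and 5.23 CPM and then at 9.46, 12.2 and 9.46 CPM (1.16 ± 0.33). Of 30 interferon-induced genes, 0 were called in either direction, and their median was -0.31.

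**Figure D2:**
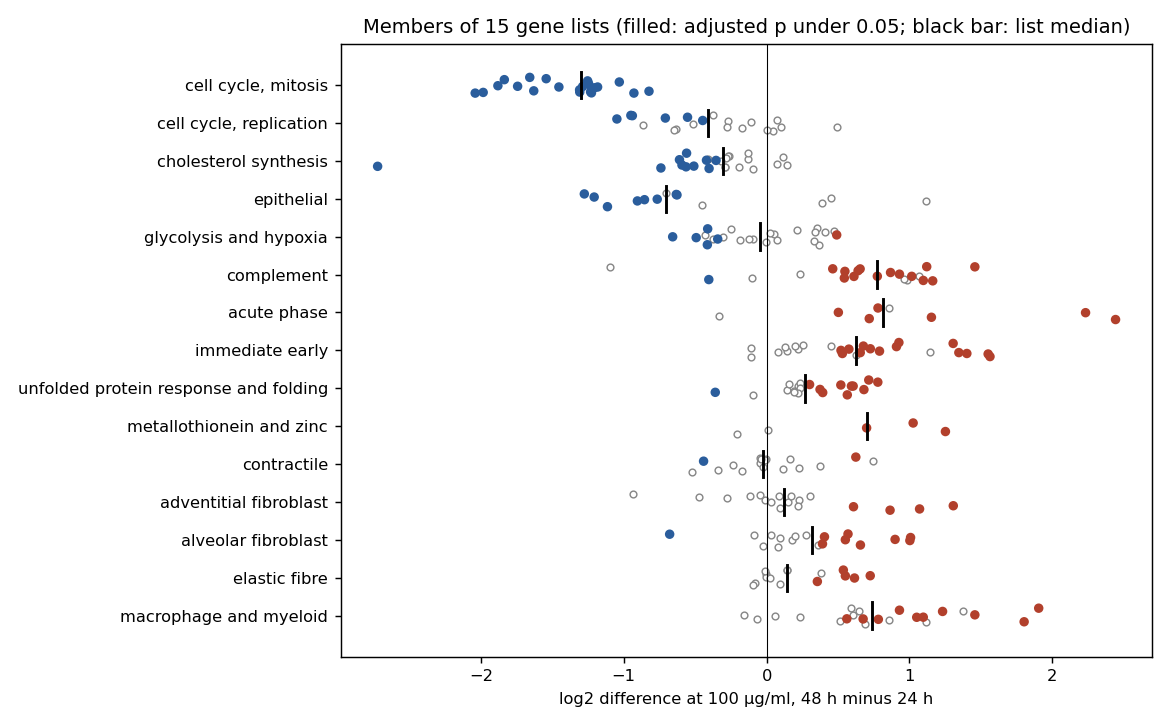
Log2 difference between 48 h and 24 h at 100 µg/ml (x axis) for each tested member of 15 gene lists (y axis), with filled points for called genes and a black bar at each list's median. The mitotic list lies wholly below 0 with a median of -1.30, whereas the complement and acute phase lists have medians of 0.78 and 0.82.

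Immediate early genes, which growth factors and stress switch on within minutes, were higher at 48 h than at 24 h. Of 25 on the list, 14 were higher and 0 lower, with a median of 0.62 (9 higher with the spelling term). The share of all tested genes called higher was 3.13%. Fos (chromosome 12, 85473890 to 85477274), a subunit of AP-1, went from 12.7, 11.3 and 10.1 CPM to 34.7, 29.9 and 36.4 CPM (1.56 ± 0.17, adjusted p = 3.59e-09). Its lowest 48 h library was more than 2-fold above its highest 24 h library. Atf3, a stress-induced factor of the same bZIP family, was at 4.36, 7.68 and 7.32 CPM and then at 23.1, 17.7 and 16.9 CPM (1.55 ± 0.26). Dusp1, a phosphatase that ends MAP kinase signals, went from 40.8, 36.6 and 45.6 CPM to 118, 93.9 and 93.7 CPM (1.31 ± 0.15). Both were free of overlap. Ier2 rose by 1.40 ± 0.15, Egr1, a zinc finger factor, by 0.91 ± 0.11, Jun by 0.79 ± 0.10 and Klf6 by 0.73 ± 0.10.

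Ccn1 (chromosome 3, 145646971 to 145649985), a matricellular protein and a target of YAP and serum response factor, had the smallest adjusted p of the comparison, 4.35e-17. It was at 63.7, 52.3 and 63.1 CPM at 24 h and at 316, 316 and 315 CPM at 48 h, a rise of 2.4 ± 0.14. The replicates at 48 h differed by about 1 CPM. After 72 h of the same dose Ccn1 was at 39 to 43.8 CPM, below its 24 h libraries, and Fos at 7.4 to 8.85 CPM. Atf3 at 4.56 to 8.57 CPM and Dusp1 at 28.8 to 39 CPM overlapped their 24 h libraries again at 72 h. The 48 h samples thus held higher levels of these 4 genes than the samples on either side in time at this dose. At 1 and 10 µg/ml Ccn1 lay at 43.2 to 61.1 and 40.1 to 59.7 CPM after 24 h and at 399 to 428 and 345 to 503 CPM after 48 h. Txnip, an arrestin that glucose induces, went the other way, from 62.2, 71.6 and 61.7 CPM at 24 h to 27.9, 24.9 and 15.4 CPM at 48 h (-1.52 ± 0.16), and lay at 98.2 to 108 CPM after 72 h.

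Among genes outside these lists, Rnd3, an antagonist of RhoA signalling, was at 32.1, 33.3 and 31.4 CPM and then at 71.5, 83 and 85.2 CPM (1.31 ± 0.15). Carmn, a long non-coding RNA of smooth muscle and mural cells, went from 13.9, 10.2 and 13.9 CPM to 41.5, 38.1 and 45.8 CPM (1.72 ± 0.22), and it was at 8.18 to 12.1 CPM after 72 h. Rnd3 and Carmn did not overlap between 24 and 48 h. Ereg, a ligand of the EGF receptor, rose by 1.27 ± 0.19 and Adamts1, a metalloprotease, by 1.15 ± 0.12. Of the 15 largest rises, Scube1, a secreted EGF-domain protein, rose by 1.31 ± 0.29 and Lgi2, a secreted leucine-rich repeat protein, by 1.29 ± 0.14.

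**Figure D3:**
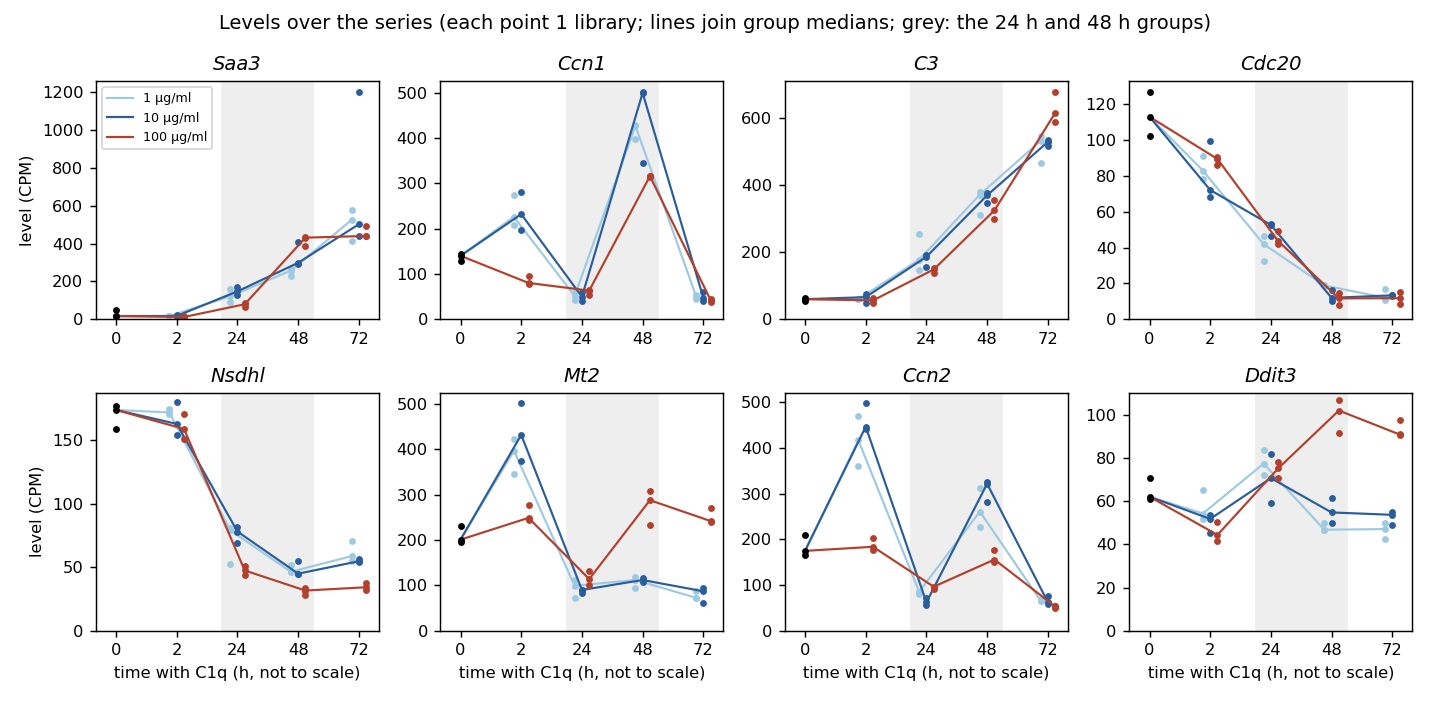
Level in CPM (y axis) of 8 genes in untreated cells and after 2, 24, 48 and 72 h (x axis, not to scale) with 1, 10 or 100 µg/ml of C1q, with 1 point per library and lines through group medians. Ccn1 peaks in the 48 h libraries at each dose, and Cdc20 and Nsdhl are lower at 48 h than at 24 h. Ddit3 parts by dose at 48 h, whereas Mt2 at 100 µg/ml lies above its 10 µg/ml libraries at both 24 h and 48 h.

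Matrix genes moved in both directions. Of 15 elastic fibre genes, 5 were higher and 0 lower, and of 10 small proteoglycans 4 were higher and 0 lower. With the spelling term each of these 2 lists had 3 higher and 0 lower. Collagen processing had 2 higher and 3 lower of 20 (1 and 0 with the spelling term). Wound matrix and matricellular genes had 6 higher and 3 lower of 17 (4 and 1 with that term). Over all tested genes, 3.13% were higher and 2.93% lower. Eln, the gene of elastin, was at 545, 609 and 558 CPM and then at 845, 900 and 877 CPM (0.62 ± 0.11). Fmod, the collagen-binding fibromodulin, went from 51.1, 60 and 67.6 CPM to 129, 122 and 120 CPM (1.05 ± 0.13). In both genes the times were apart. Dcn, the proteoglycan decorin, rose by 0.58 ± 0.08, Mfap4, a microfibril protein, by 0.55 ± 0.08 and Fn1, fibronectin, by 0.68 ± 0.16. Among 9 fibrillar collagens, 1 was higher and 1 lower, as Col3a1 rose by 0.56 ± 0.08 and Col11a1 fell by 1.12 ± 0.29, whereas Col1a1 differed by -0.04 and Col1a2 by 0.19 and neither was called. Cthrc1, a secreted protein of activated fibroblasts, fell by 1.03 ± 0.19, from 34.8, 51.9 and 39.4 CPM to 22.1, 24 and 15.4 CPM. Of 25 matrix proteases and inhibitors, 8 were higher and 0 lower (4 and 0 with the spelling term). The 8 included the inhibitors Timp1 (0.71 ± 0.10) and Timp2 (0.55 ± 0.10) and the proteases Mmp2 (0.50 ± 0.10) and Mmp3 (0.51 ± 0.09).

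Some markers of lung fibroblast subsets were higher at 48 h. For the counts that follow, 3.13% of all tested genes were higher and 2.93% lower. Of 18 alveolar fibroblast markers, 8 were higher and 1 lower, with a median of 0.32 (6 and 0 with the spelling term). Tcf21, a transcription factor of that subset, was at 52.7, 60.3 and 52.3 CPM and then at 114, 107 and 112 CPM (1.01 ± 0.11). Inmt, an N-methyltransferase, went from 153, 133 and 126 CPM to 254, 300 and 271 CPM (1.00 ± 0.09). Both were well above their 24 h range in every 48 h library. Wnt2, a Wnt ligand on the same list, fell by 0.68 ± 0.17. Of 18 adventitial fibroblast markers, 4 were higher and 0 lower, with a median of 0.12, led by Clec3b (chromosome 9, 123150946 to 123157432), the plasminogen-binding tetranectin, which went from 245, 241 and 202 CPM to 580, 567 and 555 CPM (1.31 ± 0.10, adjusted p = 1.5e-13). Cd34 and Dpp4, surface markers of the adventitial subset, differed by -0.12 and 0.08 and were not called.

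Epithelial genes fell, though the cells had been depleted with an antibody to EpCAM. Of 13, 8 were lower (3 with the spelling term) and 0 higher, against 2.93% lower of all tested genes. The median of the 13 was -0.70, and their summed level was 310 to 367 CPM at 24 h and 203 to 229 CPM at 48 h. Cldn4, a tight junction protein, was at 23.8, 25.2 and 24.7 CPM and then at 12.1, 12.7 and 6.97 CPM (-1.21 ± 0.19). Krt8, a keratin of simple epithelia, fell by 0.90 ± 0.16 and Epcam fell by 0.63 ± 0.17. The alveolar epithelial gene Sftpc, at 16.1 to 17.4 and 16.9 to 26.3 CPM, was not called. Endothelial genes summed to 57.8 to 63.3 and 56.7 to 77.8 CPM, pericyte and smooth muscle genes to 293 to 319 and 293 to 314 CPM, and mesothelial genes to 449 to 468 and 491 to 546 CPM. The part of these cells in the other results was not tested.

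**Figure D4:**
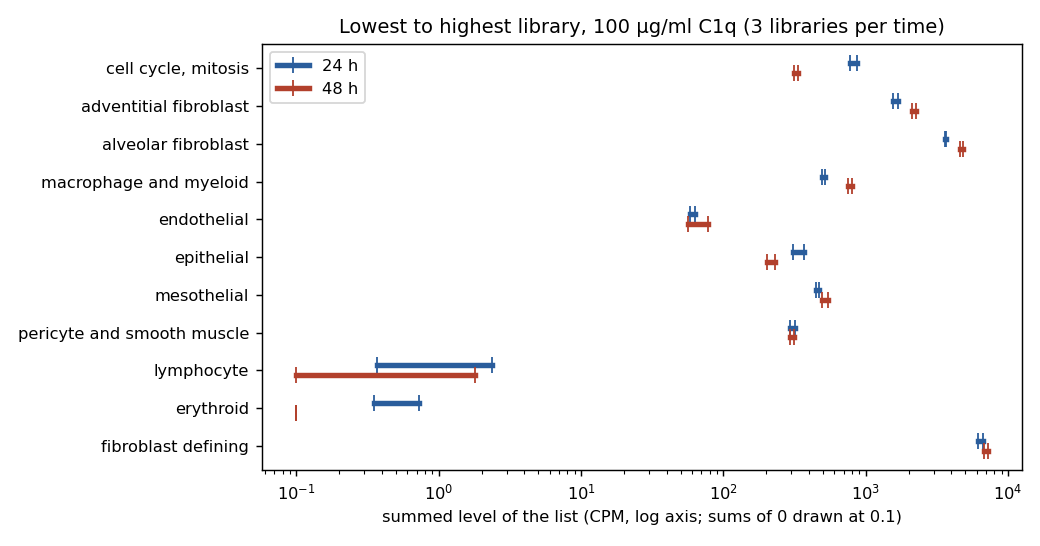
Summed level in CPM (x axis, log scale) of 11 gene lists (y axis) from the lowest to the highest of 3 libraries at 24 h and at 48 h of 100 µg/ml, with sums of 0 drawn at 0.1. The mitotic and epithelial sums are lower at 48 h without overlap, as is the erythroid sum, which is near 0. The myeloid, mesothelial, fibroblast defining and both fibroblast subset sums are higher at 48 h, also without overlap.

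Several metabolic lists fell in part. Of 24 glycolysis and hypoxia genes, 5 were lower and 1 higher (2 and 0 with the spelling term), against 2.93% lower of all tested genes. Gapdh was at 734, 748 and 670 CPM and then at 470, 447 and 447 CPM (-0.66 ± 0.09). Of 20 NRF2 targets, which answer oxidative stress, 6 were lower and 0 higher (3 and 0 with the spelling term). Nqo1, a quinone reductase, fell by 0.92 ± 0.15, from 32.1, 30.3 and 35.9 CPM to 18.4, 18.1 and 15.4 CPM. Neither Gapdh nor Nqo1 overlapped between the times. Ribosomal protein genes were called lower in 7 of 77 (11 with the spelling term), with a median of -0.08, led by Rpsa at -0.55 ± 0.08. Ddit4, an inhibitor of mTORC1, fell by 1.22 ± 0.13, from 103, 97.6 and 97.5 CPM to 48.9, 39.5 and 40.4 CPM.

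Genes of protein folding in the endoplasmic reticulum rose. Of 20 on the list, 10 were higher and 1 lower, with a median of 0.27 (3 and 0 with the spelling term). Over all tested genes, 3.13% were higher and 2.93% lower. Hspa5, the chaperone BiP, was at 447, 483 and 512 CPM and then at 762, 749 and 803 CPM (0.68 ± 0.08, adjusted p = 8.87e-09). It lay at 1040 to 1140 CPM in untreated cells, so the 48 h libraries were between the untreated and the 24 h levels. Manf, a secreted factor induced with BiP, rose by 0.72 ± 0.11, Calr, calreticulin, by 0.59 ± 0.09 and Hsp90b1, the chaperone GRP94, by 0.56 ± 0.09. Edem1, of degradation of misfolded proteins, fell by 0.36 ± 0.10. Id2 and Id1, whose products block bHLH factors downstream of BMP signals, rose by 1.13 ± 0.14 and 0.75 ± 0.13, and Bmp4 by 0.78 ± 0.12.

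A second comparison asked whether the change over this day depended on dose. It set the difference between 48 and 24 h at 100 µg/ml against the mean of the same differences at 1 and 10 µg/ml, in the same fit. Of 14419 genes, 89 had a more positive difference at 100 µg/ml and 89 a more negative one (edgeR's quasi-likelihood test, adjusted p under 0.05), or 0.617% each. In the first set the median difference was 0.36 at 100 µg/ml and -0.38 at the lower doses. In the second it was -0.05 at 100 µg/ml and 0.70 at the lower doses. Against 10 µg/ml alone, whose columns share their header spelling with the high dose at each time, 36 and 47 genes were called, and 78 of these 83 were among the 178. Leaving out replicate 3 of the 1 µg/ml group at 24 h, which stood apart from its replicates on the first principal component (12.5 against -0.511 and 0.555), gave 197 and 144. That library is the 1 of its group whose column is spelled as those of 10 and 100 µg/ml at 24 h, which lay at 4.77 to 11.4 on this axis. Leaving out a library of 100 µg/ml lowered the count from 178 to 113 and 91 (replicates 1 and 3 at 24 h) and to 102 and 84 (replicates 2 and 3 at 48 h). The spelling term left 58, and 52 of the 178 stayed called on leaving out each of the 6 libraries of 100 µg/ml in turn. The lower-dose libraries were not part of that count. The mitotic list, wholly lower at 100 µg/ml, held 2 genes with a more negative difference at the high dose, Plk1 and Ccna2, and 0 against 10 µg/ml alone. Kif22, named among the falls but outside that list, was also called, at -1.29 ± 0.34 (adjusted p = 0.0384, and 0.186 against 10 µg/ml alone). At the lower doses all 22 genes of the mitotic list were called lower too (median -1.01), as were 14 of 24 cholesterol genes. Called higher there were 15 of 21 complement, 5 of 8 acute phase, 19 of 25 immediate early and 18 of 22 myeloid genes. No member of these 6 lists was called the other way at the lower doses. Of all 14419 genes, 1665 were higher and 1546 lower there. For dose, 3 immediate early genes had a more negative difference at 100 µg/ml and 0 a more positive one, also against 10 µg/ml alone. The complement and myeloid lists each held 1 gene with a more negative difference, also against 10 µg/ml alone. More positive were 2 cholesterol and 2 acute phase genes (0 and 1 against 10 µg/ml alone).

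Contractile and wound genes had more positive differences at the lower doses than at the high dose. Of 17 contractile genes, 5 had a more negative difference at 100 µg/ml and 0 a more positive one, also against 10 µg/ml alone. Their median difference was -0.02 at 100 µg/ml and 0.44 at the lower doses. Over all tested genes 0.617% were called each way against the mean of the lower doses. Myl9, the regulatory light chain of smooth muscle myosin, was at 273, 238 and 227 CPM and then at 191, 173 and 179 CPM at 100 µg/ml. It fell by 0.44 ± 0.12 there, while the lower doses stood at 0.51 ± 0.09, a difference between doses of -0.96 ± 0.15 (adjusted p = 8.32e-05). Acta2, smooth muscle actin, was at 957, 965 and 950 CPM and then at 793, 820 and 825 CPM at the high dose. At 1 and 10 µg/ml it lay at 573 to 687 and 683 to 723 CPM after 24 h and at 926 to 1130 and 1050 to 1360 CPM after 48 h. The order of the doses in Acta2 thus reversed between the times, with a difference between doses of -0.95 ± 0.15 (adjusted p = 0.000171). Vcl, vinculin of focal adhesions, gave -0.96 ± 0.15.

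The matricellular genes Ccn2 and Thbs1 followed the same order of doses. Ccn2 (chromosome 10, 24595442 to 24598683), connective tissue growth factor, was at 90.7, 96.5 and 96.8 CPM and then at 177, 156 and 151 CPM at 100 µg/ml, a rise of 0.77 ± 0.11. At 10 µg/ml it went from 56.8 to 71.6 CPM to 282 to 326 CPM. The difference between doses was -1.20 ± 0.14 (adjusted p = 1.89e-07), so the rise was smaller at the high dose. Thbs1 (chromosome 2, 118111876 to 118127133), thrombospondin 1, an activator of latent TGF-beta, was at 273, 221 and 261 CPM and then at 358, 322 and 285 CPM at the high dose. It reached 601 to 787 CPM at 1 µg/ml and 671 to 768 CPM at 10 µg/ml after 48 h, and the difference between doses was -1.08 ± 0.13. Of 17 wound matrix genes, 4 had a more negative difference at the high dose and 0 a more positive one, against 0.617% each of all tested genes. Of 17 genes of the TGF-beta pathway the counts were again 4 and 0. Against 10 µg/ml alone they were 3 and 0 in each of these 2 lists. Among the TGF-beta pathway genes, Tgfb3, a TGF-beta ligand, gave -0.57 ± 0.13 against the mean of the lower doses.

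Further genes among the 12 with the smallest p-values had the same sign. Fhl2, a LIM protein of the actin cytoskeleton, was at 34.4, 32.9 and 33.8 CPM and then at 54.7, 50.3 and 53.3 CPM, against 102 to 119 CPM at 1 µg/ml after 48 h, with a difference between doses of -1.13 ± 0.18. Pdlim5, also a LIM protein of actin fibres, was at 66.1, 54.1 and 64.8 CPM and then at 60.4, 62.1 and 44.3 CPM, and the difference was -1.11 ± 0.16. Its times overlapped at the high dose, where it was not called. Adm, the peptide adrenomedullin, rose by 0.97 ± 0.09 at 100 µg/ml, against 1.70 ± 0.06 at the lower doses. Vgll3, a partner of TEAD factors, differed by 0.18 ± 0.08 at 100 µg/ml and by 0.87 ± 0.06 at the lower doses.

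Stress genes and metallothioneins had the opposite order. Of 22 genes of the integrated stress response and amino acid supply, 6 had a more positive difference at 100 µg/ml and 0 a more negative one (4 and 0 against 10 µg/ml alone). Their median difference was 0.05 at 100 µg/ml and -0.57 at the lower doses. The share of all tested genes called for dose was 0.617% each way. Ddit3, the stress factor CHOP, was at 75.2, 70.6 and 78 CPM and then at 91.4, 102 and 107 CPM at 100 µg/ml. At 1 µg/ml it went from 72 to 83.5 CPM to 46.7 to 50 CPM, and the difference between doses was 0.94 ± 0.13 (adjusted p = 1.57e-05). The doses overlapped at 24 h and parted at 48 h. Atf5, a factor translated under stress, was at 253, 255 and 271 CPM and then at 328, 323 and 327 CPM, with a difference between doses of 0.90 ± 0.10 (adjusted p = 3.28e-08). Trib3, a pseudokinase induced by CHOP, gave 1.24 ± 0.20 and Asns, asparagine synthetase, 0.83 ± 0.15. Neither was called at 100 µg/ml itself, where they differed by 0.10 ± 0.16 and -0.06 ± 0.12.

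Metallothioneins, which bind zinc and copper, rose at the high dose. Of 5 tested genes on the list of metallothionein and zinc genes, 2 had a more positive difference at 100 µg/ml and 1 a more negative one. The counts were the same against 10 µg/ml alone. Over all tested genes, 0.617% were called each way against the mean of the lower doses. Mt1 went from 148, 185 and 161 CPM to 286, 350 and 370 CPM (1.03 ± 0.13) and Mt2 from 102, 131 and 114 CPM to 233, 288 and 308 CPM (1.25 ± 0.13). Both were apart between the times at 100 µg/ml. At 10 µg/ml Mt2 was at 82.9 to 91 CPM after 24 h and at 108 to 117 CPM after 48 h, and the differences between doses were 1.07 ± 0.16 for Mt1 (adjusted p = 5.32e-05) and 0.98 ± 0.16 for Mt2 (adjusted p = 0.000241). Saa3 and Hp, of the acute phase, also had a larger rise at the high dose, by 1.37 ± 0.29 (adjusted p = 0.00611) and 0.88 ± 0.15 (adjusted p = 0.000242). Against 10 µg/ml alone Saa3 had an adjusted p of 0.0537. Igfbp5, a binding protein of insulin-like growth factors, rose by 0.89 ± 0.09 at 100 µg/ml, by 0.56 ± 0.11 more than at the lower doses.

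Neat1 (chromosome 19, 5824708 to 5845480), the long non-coding RNA that builds nuclear paraspeckles, had the smallest p of the dose comparison. At 100 µg/ml it stood at 166, 155 and 172 CPM and then at 167, 178 and 189 CPM, a difference of 0.11 ± 0.09 that was not called. At 1 µg/ml it went from 348 to 398 CPM to 158 to 191 CPM and at 10 µg/ml from 360 to 387 CPM to 187 to 207 CPM. The high dose was thus the lower one at 24 h and within about the same range at 48 h, and the difference between doses of 1.11 ± 0.11 (adjusted p = 1.61e-08) came with the fall at the lower doses. St3gal4, a sialyltransferase, was at 103, 96.5 and 106 CPM and then at 137, 154 and 136 CPM at 100 µg/ml, and gave 0.99 ± 0.12 (adjusted p = 1.18e-06). All 12 genes named for dose kept their call with the spelling term and against 10 µg/ml alone.

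**Figure D5:**
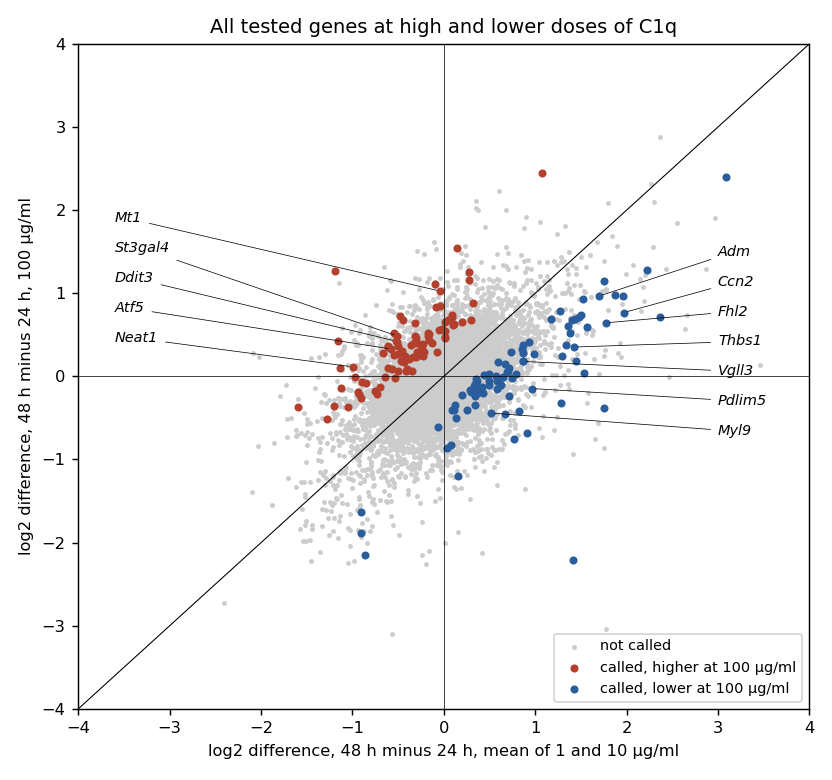
Log2 difference between 48 h and 24 h for each tested gene at 100 µg/ml (y axis) against the mean of 1 and 10 µg/ml (x axis), with the genes called for dose dependence coloured, the line of equal change drawn and the 12 named genes marked; 2 genes lie outside the axes. Genes such as Ccn2, Thbs1 and Fhl2 lie below the line and Mt1, Ddit3 and Neat1 above it.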

How the data were processed

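The authors deposited 1 table of raw counts per gene name, with 30012 names and 39 columns, all of which were matched to samples by the serial number in the column name. Reads of poly(A) RNA were sequenced from the 5' end, per the labels' protocols, and the submitters' processing notes name cutadapt 2.1.0, Bowtie2 2.4.2 and the build GRCm38. How reads were counted, with which annotation, and whether strand and molecular identifiers were used is not given in the sources used here, so near-identical, overlapping and antisense genes are uncertain.

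Counts were fitted with edgeR 4.0.16 (R 4.3.3) over all 39 libraries with a mean per dose and time group, TMM scaling and edgeR's default filter (14419 genes). Quasi-likelihood tests were adjusted by the Benjamini-Hochberg method over all tested genes, with a threshold of 0.05. The comparisons were 48 h against 24 h at 100 µg/ml and its difference from the mean of 1 and 10 µg/ml. CPM values use TMM-adjusted library sizes, and they do not correct for gene length. Log2 differences come from the fit. A prior count of 2 entered only the log2 CPM values, used for the level filter and the principal components. At these depths genes of a few CPM rest on about 10 counts per library, and their calls are less certain.

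Genes were named if called, with a mean log2 CPM of at least 3, no overlap between the 6 libraries and a gene name that is not a predicted gene. The call, for time or for dose, also had to hold on leaving out each of these 6 libraries in turn. The 15 largest rises and falls were taken, and for dose the 12 smallest p-values under the same filters without that on overlap. Members of 47 gene lists were named too. Some genes that these rules pick are not reported here. The members and lists were chosen with earlier results of these data known, and lists were counted, not tested. Replicates were compared in pairs with a chi-square test over genes with at least 20 counts, and the statistic per degree of freedom was 1.31 to 2.93 at this dose, so no pair looked like 1 library deposited again. Gene positions and promoters are from RefSeq for GRCm38.p6, matched by symbol. The scripts were tested on simulated data. Alternatives were DESeq2 1.42.0, RLE scaling, no filter, only the libraries compared, the header spelling as a term, the row LOC118568312 left out, each library left out, and a log2 size of at least 1. Chosen after seeing the data were counts thinned to the smallest library and 10 µg/ml as the only lower dose. Figures were drawn with matplotlib under Python.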

Additional observations from a re-analysis of the deposited data

Results flagged for a closer look

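The difference between 48 and 24 h depended on dose in 178 genes, by a test of the difference of differences between 100 µg/ml and the mean of 1 and 10 µg/ml. These 12 named genes passed that test (values are differences of log2 differences). More positive at 100 µg/ml were Neat1 at 1.11, Mt1 at 1.07, St3gal4 at 0.991, Ddit3 at 0.945 and Atf5 at 0.902. More negative at 100 µg/ml were Ccn2 at -1.20, Fhl2 at -1.13, Pdlim5 at -1.11, Thbs1 at -1.08, Myl9 at -0.956, Adm at -0.734 and Vgll3 at -0.686. Groups of 3 libraries were not searched gene by gene for a single outlying value.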

How the results depend on the processing

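No paired analysis was possible because the labels give only serial numbers and no replicate numbers. No called gene named in the text changed its direction under any of these alternatives. Of all 875 calls between the times, 874 kept their sign with the header spelling as a term, 870 with thinned counts and 856 with only the libraries compared, and of the 178 for dose 177 did so with thinned counts, where genes outside an alternative's fit count as not kept. The 875 calls between 48 and 24 h (452 higher, 423 lower) became 344 (153 and 191) with the header spelling as a term and 199 (69 and 130) with a log2 difference of at least 1. They ranged from 596 to 644 on leaving out 1 library (higher 306 to 335, lower 269 to 334, with 269 lower without the second library at 48 h). DESeq2 called 699. The 178 calls for dose (89 and 89) became 115 (64 and 51) with only the 18 libraries compared, 58 (19 and 39) with the spelling term, 101 (47 and 54) with thinned counts, 83 (36 and 47) against 10 µg/ml alone, 29 (12 and 17) with a log2 difference of at least 1 and, with no filter, 145 more negative ones. On leaving out 1 library they ranged from 84 to 341 (more positive 41 to 197, more negative 40 to 144). They were 341 without replicate 3 of 1 µg/ml at 24 h, 113 and 91 without replicates 1 and 3 of 100 µg/ml at 24 h, and 102 and 84 without replicates 2 and 3 of 100 µg/ml at 48 h. The causes were not tested. With the spelling term 28 of the 30 genes named for time kept their call, all but Lcn2 and Cxcl13. A log2 difference of at least 1 left 6 of the 12 genes named for dose, a threshold of size that the other 6 do not reach. Smaller changes of genes with few counts were not detectable at this depth.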
